A study of Mus musculus with 6 samples.

Results

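The immediate early genes Fos, Fosb, Jun, Junb, Jund, Egr1, Ier2, Atf3, Dusp1 and Nr4a1 were read in sorted cells of the mouse calvarial suture. These 10 genes were chosen as AP-1 and other early genes that tissue dissociation is known to induce, and each is read by the only array feature that carries its symbol alone, out of 19938 genes measured. The 3 Axin2+/GFP+ and 3 Axin2-/GFP- samples came from mice of mixed C57BL/6J, CD-1 and B6CBAF2 background at postnatal day 28. All carried Axin2rtTA, in which Axin2 drives the activator rtTA that works with doxycycline, and TRE-H2BGFP, which answers with a histone-GFP fusion, and all received doxycycline from postnatal day 25 to 28. Each sample was a pool of 6 to 8 mice, digested with 0.2% collagenase and separated by GFP intensity alone. Both sorts therefore share the digestion protocol, and no undigested tissue was measured. A level common to both sorts cannot be split here into what the cells had in the mouse and what the digestion added.

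Immediate early genes are transcribed within minutes of a stimulus without new protein synthesis. Growth factor, stress and calcium signals reach them through MAP kinases, through the serum response factor SRF with its ELK partners, and through CREB at cyclic AMP response elements. FOS and JUN proteins pair through leucine zippers into AP-1, which drives later genes of proliferation, matrix turnover and inflammation. The response is brief because the messages decay fast and because phosphatases of the DUSP family switch the kinases off. Enzymatic release of cells from a tissue is a known stimulus of this kind, and in bone AP-1 also acts in osteoblasts and osteoclasts.

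The DNA just before the start site of a few members is shown because this is where such signals act. Fos and Fosb on the one hand and Dusp1 and Nr4a1 on the other had differences of opposite sign between the sorts on the deposited values. None of these differences passed an adjusted p of 0.05 in limma on those values. Sequences are from RefSeq (GRCm38.p6), where 8 of the 10 members were matched by symbol. Each run holds the 150 bases before the annotated start, 5′ to 3′ on the gene's strand, and capitals mark the core of the cyclic AMP response element, TGACG on either strand. Fos lies at chr12:85473740-85473889 on the plus strand, Fosb at chr7:19310046-19310195 on the minus strand, Dusp1 at chr17:26508473-26508622 on the minus strand and Nr4a1 at chr15:101266696-101266845 on the plus strand.
Fos: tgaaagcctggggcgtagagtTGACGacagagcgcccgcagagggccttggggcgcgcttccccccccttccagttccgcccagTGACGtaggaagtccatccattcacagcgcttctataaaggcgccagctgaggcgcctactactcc
Fosb: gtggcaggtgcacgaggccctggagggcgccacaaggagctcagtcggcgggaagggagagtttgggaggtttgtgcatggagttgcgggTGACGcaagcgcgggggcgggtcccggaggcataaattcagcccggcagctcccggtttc
Dusp1: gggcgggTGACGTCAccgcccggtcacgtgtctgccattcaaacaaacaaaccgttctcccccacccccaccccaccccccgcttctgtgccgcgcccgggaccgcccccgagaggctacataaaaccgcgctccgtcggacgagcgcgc
Nr4a1: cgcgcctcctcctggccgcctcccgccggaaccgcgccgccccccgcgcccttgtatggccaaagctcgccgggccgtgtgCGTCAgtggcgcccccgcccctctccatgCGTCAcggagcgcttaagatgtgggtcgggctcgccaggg

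Over 250 bases before the start, the core TGACG was found on either strand in 6 of the 8 members (Fos, Fosb, Junb, Atf3, Dusp1 and Nr4a1), against 17.8% of the 32851 promoters in the table. The full palindrome TGACGTCA, which contains the core on both strands, was found in Dusp1 only and in 1.55% of all promoters. The EGR element GCGNGGGCG was in Fosb and Nr4a1 and in 4.70% of promoters, and TATAAA was in Fos and in 12.4%. The AP-1 element TGANTCA and the CArG box bound by SRF were in 0 of the 8 members, and in 6.75% and 1.47% of promoters. Ier2 had no entry under its symbol, and either Jun, Jund or Egr1 was not matched. The count of 0 therefore does not describe every member. A match, or the lack of one, describes these letters in these 250 bases only, and sites further upstream were not searched. The core was present both in genes with a positive and in genes with a negative difference on the deposited values.

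All 10 genes were read above the level taken for the dim end of the array in both sorts. Olfactory and vomeronasal receptor genes, 1190 in number, served as a measure of that end. Their 95th percentile, called the receptor level here, lay between 2.74 and 3.30 on the log2 scale over the 6 samples, and each member was above it in 6 of 6 samples. The lowest member value of a sample ran from 5.03 to 5.87. The brightest single receptor gene reached 6.14 and 6.33 in Axin2+/GFP+ replicates 1 and 3, above the lowest member there. In the other samples it stayed below every member. Averaged over the 10 genes, the log2 value was 6.90, 7.03 and 6.50 in Axin2+/GFP+ replicates 1, 2 and 3 and 7.03, 6.65 and 6.89 in the Axin2-/GFP- replicates. These averages overlap between the sorts.

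**Figure D1:**
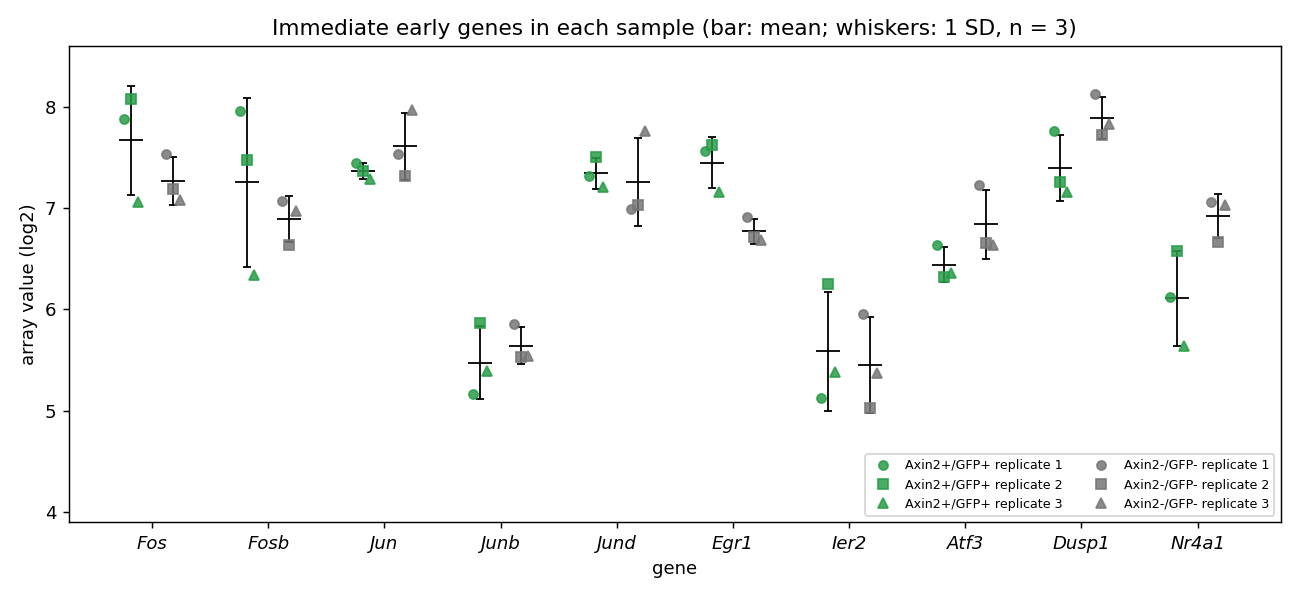
Array values (log2, vertical axis) of the 10 immediate early genes (horizontal axis) with 1 point per sample, green for Axin2+/GFP+ and grey for Axin2-/GFP-, bars for means and whiskers for the SD (n = 3). The sorts do not overlap for Egr1 and Nr4a1 and overlap for the other 8 genes.

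Of the 10 genes, Egr1 was higher in Axin2+/GFP+ cells, 0 were lower and 9 did not pass in limma, where calls needed an adjusted p under 0.05. Before adjustment 1 was higher and 2 were lower at that level, against 3241 and 3505 of all 19938 genes. Of the genes with a mean log2 value of 5 or more, 179 were higher and 856 lower before adjustment. Over all genes 16.0% were called, 4.64% higher and 11.4% lower, and among the 1719 genes with a mean log2 value of 5 or more, where all 10 members lie, 42.6% were called. The members' count of 1 in 10 was thus not above the background. Their median log2 change was -0.04, against 0.14 over all genes and -0.57 over the genes with a mean of 5 or more, and 5 changes were positive and 5 negative. In bulk RNA of this kind, fewer cells with a transcript and less transcript per cell cannot be told apart.

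Among the FOS partners of AP-1, Fos read 7.87, 8.08 and 7.06 on the log2 scale in the Axin2+/GFP+ replicates and 7.53, 7.19 and 7.08 in the Axin2-/GFP- replicates. Replicates 1 and 2 of the Axin2+/GFP+ sort were above every other sample and replicate 3 was below all of them. The difference between the sorts was 0.41 (log2, SE 0.28, limma adjusted p = 0.317). Fosb, a close relative of Fos with the same dimer partners, read 7.96, 7.47 and 6.34 in Axin2+/GFP+ and 7.07, 6.63 and 6.97 in Axin2-/GFP- cells. Its Axin2+/GFP+ replicates again held both the brightest and the dimmest sample, with an SD of 0.83 (n = 3) against 0.23 (n = 3) in Axin2-/GFP- cells. The difference between the sorts was 0.36 (log2, SE 0.37, limma adjusted p = 0.495).

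The 3 JUN genes, whose proteins can pair with FOS proteins or with each other, were close between the sorts. Jun read 7.45, 7.37 and 7.29 in Axin2+/GFP+ and 7.54, 7.32 and 7.97 in Axin2-/GFP- cells, a difference of -0.24 (log2, SE 0.20, limma adjusted p = 0.412). Junb, which often restrains JUN, read 5.16, 5.87 and 5.39 against 5.85, 5.53 and 5.54, a difference of -0.17 (log2, SE 0.22, limma adjusted p = 0.600). Jund, the JUN gene least dependent on stimulation, read 7.31, 7.51 and 7.21 against 6.99, 7.03 and 7.76, a difference of 0.08 (log2, SE 0.24, limma adjusted p = 0.817). For each of them the sorts overlapped, and Axin2-/GFP- replicate 3 held the highest value of Jun and of Jund. Atf3, a stress-induced partner of JUN that mostly represses, read 6.64, 6.32 and 6.36 in Axin2+/GFP+ and 7.23, 6.66 and 6.63 in Axin2-/GFP- cells. Axin2+/GFP+ replicate 1 just reached the lowest Axin2-/GFP- sample, and the difference between the sorts was -0.40 (log2, SE 0.21, limma adjusted p = 0.217).

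Egr1, a zinc finger factor induced through SRF, was the member that passed. It read 7.56, 7.62 and 7.16 on the log2 scale in Axin2+/GFP+ cells and 6.91, 6.72 and 6.69 in Axin2-/GFP- cells, so that every Axin2+/GFP+ sample was above every Axin2-/GFP- sample. The difference between the sorts was 0.68 (log2, SE 0.19, limma adjusted p = 0.0431), a fold of 1.60. Over all genes, 23.1% had sorts that did not overlap with Axin2+/GFP+ higher, and 17.8% with Axin2+/GFP+ lower. The call of Egr1 was lost when Axin2+/GFP+ replicate 1 (0.62) or 2 (0.59) was left out, and when any Axin2-/GFP- replicate was (0.75, 0.65 and 0.63 for replicates 1, 2 and 3). It was also lost with a variance trend, with a replicate block and in the methods' t-test, all at 0.68. With the arrays centred on their median it stood at 0.57, and with the arrays centred on the receptor genes (receptor centring) at 0.36, neither of them called. Over all settings the adjusted p ran from 0.00384 to 0.238, always with Axin2+/GFP+ higher.

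Nr4a1 encodes an orphan nuclear receptor induced by calcium and antigen receptor signals. It read 6.12, 6.58 and 5.64 in Axin2+/GFP+ and 7.06, 6.67 and 7.03 in Axin2-/GFP- cells, with no overlap, and its difference of -0.81 (log2, SE 0.25, limma adjusted p = 0.0628) did not pass. It passed as lower without Axin2+/GFP+ replicate 2 (-1.04), after median centring (-0.92) and under receptor centring (-1.13), and stood at -0.34 after quantile normalization and -0.18 after cyclic loess. Over all settings its adjusted p ran from 0.0130 to 0.732. Dusp1, the phosphatase that inactivates p38 and JNK, read 7.76, 7.25 and 7.16 against 8.12, 7.72 and 7.83, a difference of -0.50 (log2, SE 0.22, limma adjusted p = 0.142). Its sorts overlapped through Axin2+/GFP+ replicate 1. Ier2, a small nuclear early response protein, spread most among the samples of a sort apart from Fosb, at 5.13, 6.25 and 5.38 against 5.96, 5.03 and 5.37, with a difference of 0.13 (log2, SE 0.33, limma adjusted p = 0.788).

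Egr1 and Nr4a1 stood in a different ratio within the arrays of the sorts. The log2 value of Egr1 minus that of Nr4a1 was 1.44, 1.05 and 1.52 in the Axin2+/GFP+ replicates and -0.15, 0.05 and -0.34 in the Axin2-/GFP- replicates, a measure that centring an array does not move. The sorts did not overlap. The pair was picked after its values were seen, so the difference is given as a description.

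Samples of the same sort differed in the members as a set. In Axin2+/GFP+ replicate 3 all 10 genes were below their group mean, on average by a log2 value of -0.31, and 7 of the 10 had their lowest Axin2+/GFP+ value there. Of all genes 49.5% were below their group mean in this sample and 31.4% had their lowest value there, and of those with a mean of 5 or more 47.9% and 33.0%. In Axin2-/GFP- replicate 2 all 10 genes were again below their group mean, by -0.21 on average. Of all genes 48.8% were below it there, and of those with a mean of 5 or more 57.2%. The lowest Axin2-/GFP- value lay in this sample for 6 of the 10, against 30.7% of all genes and 35.5% of those with a mean of 5 or more. Axin2-/GFP- replicate 1 held the highest value of its sort for 8 of the 10 genes, against 32.8% of all genes and 45.4% of those with a mean of 5 or more. Members read in 1 sample share its handling, so these counts describe the samples and are no independent readings. Fosb ranged furthest, from 0.70 above the group mean in Axin2+/GFP+ replicate 1 to -0.92 in replicate 3, followed by Ier2, which stood 0.66 above it in Axin2+/GFP+ replicate 2. The median within-sort SD of the members was 0.31, against 0.25 over all genes and 0.33 over the genes with a mean of 5 or more.

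**Figure D2:**
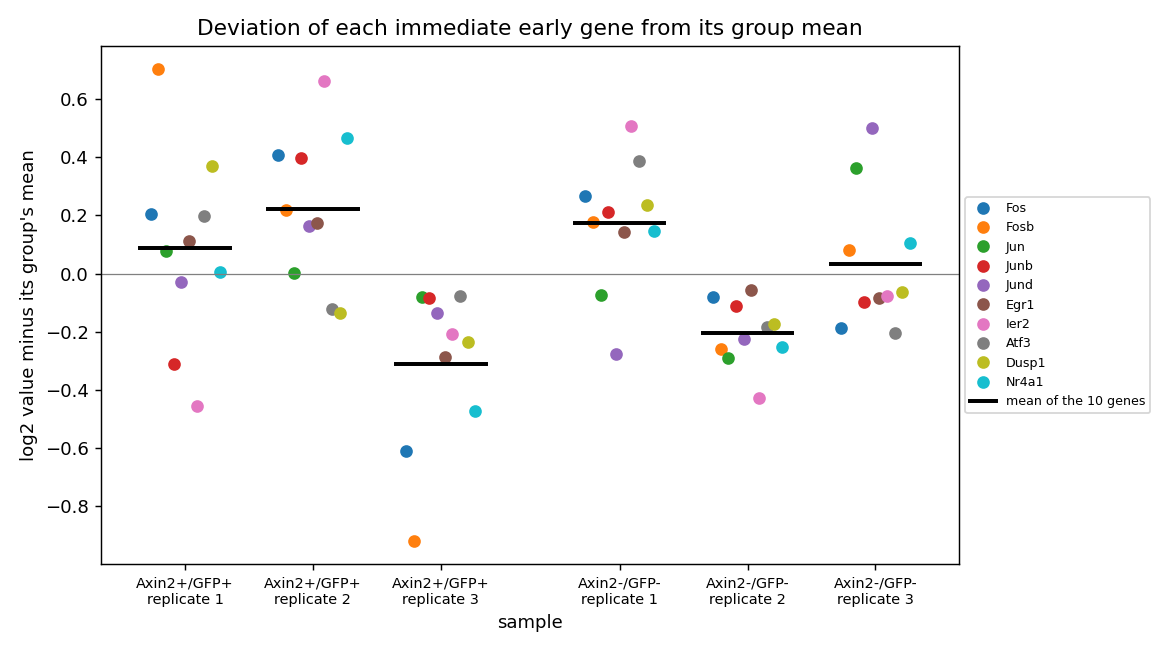
Log2 value of each of the 10 immediate early genes minus the mean of its sort (vertical axis) in each of the 6 samples (horizontal axis), with 1 coloured point per gene and a black line at their mean. All points lie below 0 in Axin2+/GFP+ replicate 3 and Axin2-/GFP- replicate 2.

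By their deviations from the group means over the 6 samples, the genes most like the average member were Muc2, Gpr34, Tpst2, Tbx21 and Phldb1, with a Pearson r of 0.998 to 0.992 among 13508 genes whose within-sort SD was at least 0.2. With 6 samples and that many genes such values are a description of rank only. Of these 5 genes Muc2 was called, with a log2 difference of 0.71 (limma adjusted p = 0.0453).

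The arrays of the sorts do not share one distribution, and the direction of several members depended on how this was handled. The median change of all genes was 0.14 on the values as deposited. It was 0.03 and -0.18 once arrays were centred on their median or on the receptor genes, 0.05 once they were quantile normalized and 0.01 with cyclic loess. In the same order the median of the members was -0.04, -0.15, -0.36, 0.44 and 0.56. After cyclic loess Fos (1.07) and Egr1 (1.33) were called higher and Jun (0.42), Junb (0.41), Atf3 (0.24) and Dusp1 (0.16) turned positive. When centred on the receptor genes Atf3 (-0.72), Dusp1 (-0.82) and Nr4a1 (-1.13) were called lower. Fos, Fosb, Egr1 and Nr4a1 kept their sign in all 16 alternatives that were run. Among these, the methods' t-test, variance trend, replicate block, dim gene filter and mean of features cannot move a member's change. They therefore do not test its sign.

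**Figure D3:**
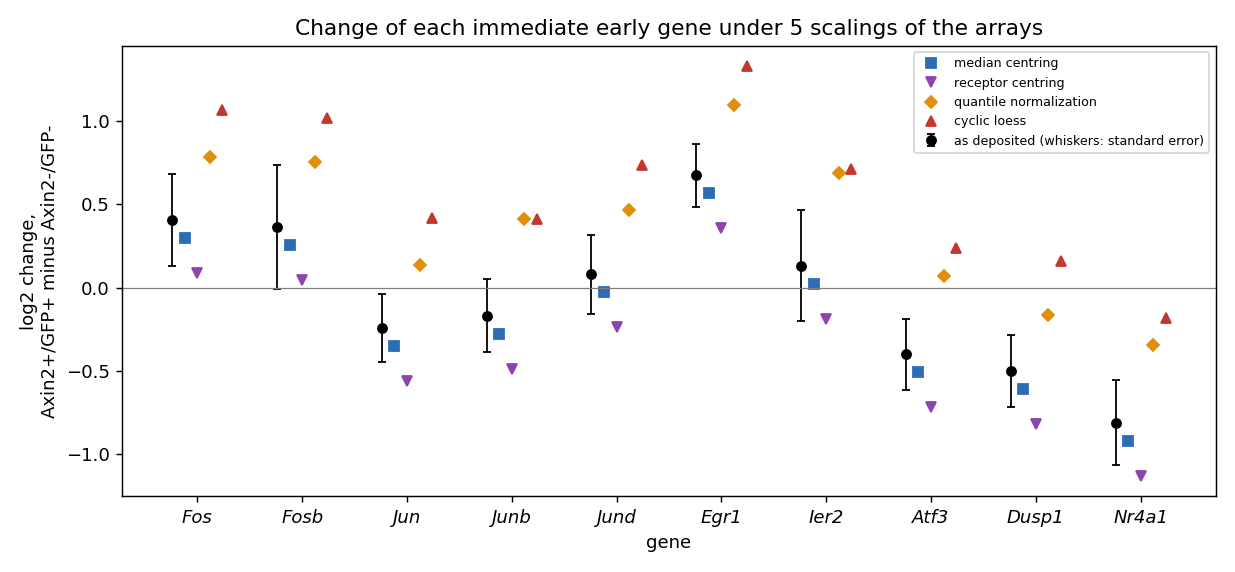
Log2 change, Axin2+/GFP+ minus Axin2-/GFP- (vertical axis), of the 10 immediate early genes (horizontal axis) under 5 scalings of the arrays, with the standard error on the values as deposited. Quantile normalization and cyclic loess lie above the deposited values for every gene, and both centrings lie below them, while Egr1 stays above 0 and Nr4a1 below 0 throughout.

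The wider early response was read through 6 lists with 95 measured genes, of which 8 were higher, 23 lower and 64 did not pass in limma. The share called, 32.6%, was above the 16.0% of all genes and below the 42.6% of the bright ones. Of all 19938 genes 926 were higher and 2265 lower, and of the 1719 bright ones 107 and 626. Before adjustment these counts were 3241 and 3505, and 179 and 856. The lists' median log2 difference was -0.25, against 0.14 over all genes and -0.57 over the bright ones. It turned to 0.07 with quantile normalization and 0.02 with cyclic loess. Without any 1 of the 6 samples 18 of the 31 calls held, and 15 of these also held under the 4 other scalings. The methods' t-test called Batf2 higher, a gene above the receptor genes' 95th percentile in 1 of 6 samples, and 10 genes lower, namely Per1, Zfp36l1, Zfp36l2, Dusp2, Dusp10, Srf, Elk4, Mapk9, Hspe1 and Hspd1. Jdp2, Trib1 and Hspa1a also lost their calls with a variance trend and with the replicate block, and Dnajb4 with the block, at the log2 differences given with each gene. Of the 31 called genes 8 were not above the receptor genes' 95th percentile in some samples, which is said with each of them, and a difference against such values can be understated. The same samples differed in blood cell markers: all 12 measured genes of the B lineage fell in Axin2+/GFP+ cells, with a summed linear signal of 95.2 to 103.0 there and 1771 to 2424 in Axin2-/GFP- cells, and 11 of 14 neutrophil markers were higher, with 21933 to 23451 against 3193 to 10119. Their part in the changes of the early genes was not tested.

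**Figure D4:**
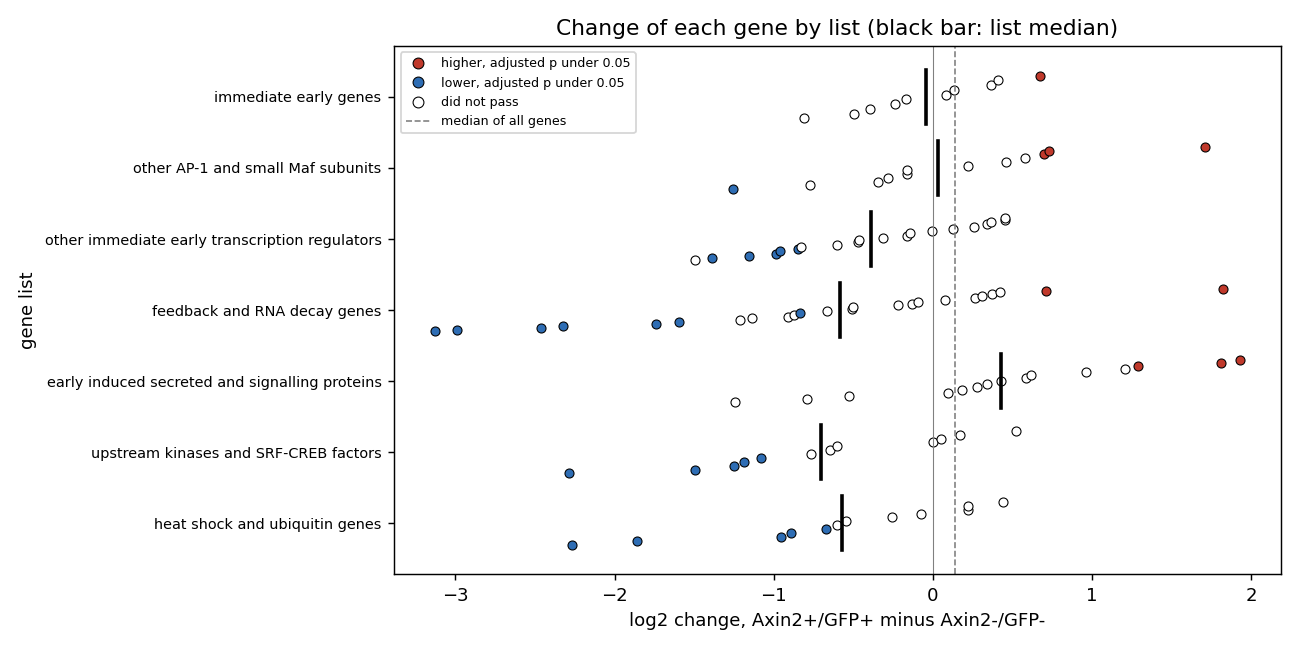
Log2 change, Axin2+/GFP+ minus Axin2-/GFP- (horizontal axis), of each measured gene of the immediate early genes and 6 related lists (vertical axis), red where higher and blue where lower at an adjusted p under 0.05, with a black bar at each list's median and a dashed line at the median of all genes. The feedback and RNA decay genes reach furthest to the left, with Zfp36l1 at -3.13 (Dusp2 and Rps6ka3 are drawn as measured, with Axin2+/GFP+ values below the receptor level), and the 10 immediate early genes lie between -0.81 and 0.68.

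Among 12 other AP-1 and small Maf subunits 3 were higher and 1 lower (5 and 2 before adjustment). Fosl1, the FOS relative FRA-1, read 5.73, 6.25 and 5.31 in Axin2+/GFP+ and 4.69, 3.67 and 3.81 in Axin2-/GFP- cells. Its difference of 1.71 (log2, SE 0.32, limma adjusted p = 0.00942) was beyond that of any of the 10 immediate early genes, and every Axin2+/GFP+ sample was above every Axin2-/GFP- sample. Atf2, a CRE-binding partner of JUN, fell, with a log2 difference of -1.25 (limma adjusted p = 0.00929), a call that ended after quantile normalization (-0.88) and cyclic loess (-0.88). Jdp2, a repressive JUN partner, at 0.73 (adjusted p = 0.0381) lost its call without Axin2+/GFP+ replicate 1 (0.74), 2 (0.79) or 3 (0.66) or Axin2-/GFP- replicate 1 (0.72) or 3 (0.60), after median centring (0.62) and under receptor centring (0.41). Batf2 read 2.81 to 3.09 in Axin2+/GFP+ and 2.24 to 2.32 in Axin2-/GFP- cells (limma adjusted p = 0.0231), above the receptor genes' 95th percentile in 1 of the 3 Axin2+/GFP+ and 0 of the 3 Axin2-/GFP- samples, so no fold is given for it. The receptor genes themselves had a median difference of 0.30. Its call was lost without Axin2+/GFP+ replicate 3 (0.64) or any Axin2-/GFP- replicate (0.69, 0.69 and 0.73 for replicates 1, 2 and 3), with quantile normalization (0.58), with cyclic loess (0.50) and under receptor centring (0.38).

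Among 20 other early transcription regulators 0 were higher and 5 lower (0 higher and 8 lower before adjustment). Per1, a clock repressor with CREB-driven induction, read 4.69, 4.80 and 4.61 against 5.47, 5.54 and 5.62, a log2 difference of -0.84 (limma adjusted p = 0.00972), which was -0.28 after quantile normalization and -0.30 after cyclic loess and not called there. Klf10 (-1.16), Csrnp1 (-0.96), Tiparp (-1.39) and Bhlhe40 (-0.99) were also lower, and none of these 4 was called after quantile normalization or cyclic loess. Klf10 lost its call without Axin2-/GFP- replicate 1 (-0.99), Csrnp1 without any 1 Axin2-/GFP- replicate (-0.97 and -0.91 without replicates 1 and 2), and Tiparp without Axin2+/GFP+ replicate 1 (-1.07) or 2 (-1.41) or Axin2-/GFP- replicate 1 (-1.23) or 2 (-1.27). Bhlhe40 lost it without Axin2+/GFP+ replicate 2 (-1.06) or 3 (-0.71) or Axin2-/GFP- replicate 1 (-0.85), 2 (-0.95) or 3 (-1.16), and 1 of its 3 Axin2+/GFP+ samples was above the receptor level. The close relatives of Egr1 and Nr4a1 did not pass, with log2 changes of -0.16 for Egr2, 0.13 for Egr3, 0.45 for Egr4, -0.47 for Nr4a2 and -0.60 for Nr4a3.

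The feedback and RNA decay genes held the largest falls of these lists, with 2 of 24 higher and 7 lower (2 and 12 before adjustment). Dusp2, a nuclear MAP kinase phosphatase abundant in lymphoid cells, read 2.82, 2.70 and 2.47 in Axin2+/GFP+ and 5.74, 5.67 and 5.56 in Axin2-/GFP- cells (limma adjusted p = 3.96e-05). All 3 of its Axin2+/GFP+ values were below the receptor genes' 95th percentile on their arrays, so its level there has only an upper bound, and against that percentile Dusp2 was at least 5.70-fold lower. Dusp10, which acts on p38 and JNK, changed by -2.46 (adjusted p = 0.000519) and Dusp6, which acts on ERK, by -2.32 (adjusted p = 0.0144), while the member Dusp1 did not pass. Dusp6 lost its call without Axin2-/GFP- replicate 1 (-2.27) or 2 (-2.25), with quantile normalization (-1.90) and with cyclic loess (-1.81). Axin2+/GFP+ replicate 3 was not above the receptor level for Dusp6 or Dusp10. Zfp36l1, which binds AU-rich messages and speeds their decay, fell from 6.81, 7.40 and 7.27 in Axin2-/GFP- to 4.06, 4.48 and 3.55 in Axin2+/GFP+ cells, a difference of -3.13 (log2, SE 0.27, limma adjusted p = 0.000298), and its relative Zfp36l2 changed by -1.74 (adjusted p = 0.00152). Btg1, an antiproliferative factor, changed by -1.60 (adjusted p = 0.00498, not called after cyclic loess at -0.94), and Tnfaip3, an inhibitor of NF-κB signalling, by -0.83 (adjusted p = 0.0170), a call that ended without Axin2-/GFP- replicate 1 (-0.71), with quantile normalization (-0.27) and with cyclic loess (-0.22).

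Gadd45a, a growth arrest and DNA damage response gene, went the other way. It read 9.14, 8.53 and 8.64 in Axin2+/GFP+ and 7.49, 6.60 and 6.75 in Axin2-/GFP- cells, a difference of 1.82 (log2, SE 0.27, limma adjusted p = 0.00350), with no overlap. Its relatives Gadd45b and Gadd45g did not pass, at -0.66 and -0.13. Trib1 at 0.71 (adjusted p = 0.0371) lost its call without Axin2+/GFP+ replicate 1 (0.73), 2 (0.72) or 3 (0.68) or Axin2-/GFP- replicate 1 (0.80), 2 (0.79) or 3 (0.55), after median centring (0.60) and under receptor centring (0.39).

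Of 15 measured secreted and signalling products of the early response 3 were higher and 0 lower (4 and 1 before adjustment). Thbs1, the matrix protein thrombospondin-1, read 8.25, 9.02 and 8.55 in Axin2+/GFP+ and 7.12, 6.93 and 5.99 in Axin2-/GFP- cells, a difference of 1.93 (log2, SE 0.32, limma adjusted p = 0.00541). Plaur, the urokinase receptor, changed by 1.29 (adjusted p = 0.00920). Il6, an inflammatory cytokine, read 6.11, 5.49 and 3.98 against 3.11, 3.95 and 3.10, a log2 difference of 1.81 (limma adjusted p = 0.0405). Its Axin2+/GFP+ replicate 3 was close to the highest Axin2-/GFP- sample, and the call ended without Axin2+/GFP+ replicate 1 (1.35) or 2 (1.66) or Axin2-/GFP- replicate 1 (1.67), 2 (2.09) or 3 (1.67), after median centring (1.70) and under receptor centring (1.49).

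Of 12 measured upstream factors 0 were higher and 5 lower (1 and 7 before adjustment). Srf read 3.55, 3.50 and 3.61 in Axin2+/GFP+ and 4.72, 4.65 and 4.54 in Axin2-/GFP- cells, a difference of -1.08 (log2, SE 0.16, limma adjusted p = 0.00322). Its cofactors Elk4 and Elk3 changed by -2.29 (adjusted p = 0.000569) and -1.19 (adjusted p = 0.00506), and the kinase Mapk9 (JNK2) by -1.50 (adjusted p = 0.00210), with 1 of 3 Axin2+/GFP+ samples above the receptor level. The kinase Rps6ka3 (RSK2) was called lower too (adjusted p = 0.00748), but 0 of its 3 Axin2+/GFP+ values were above that level, and against it Rps6ka3 was at least 1.57-fold lower. These 5 calls held under each scaling and without any 1 sample. Elk1, another ELK gene, went the other way, with a log2 difference of 0.52 (limma adjusted p = 0.1185). Its sorts did not overlap, and it was the 1 gene higher before adjustment, but it did not pass. In the same samples Egr1, which SRF and ELK factors are known to drive, had a positive change. These are transcript levels, and the activity of the factors was not tested.

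Of 12 measured heat shock genes 0 were higher and 5 lower (1 and 6 before adjustment). The largest falls were in Hspd1 (-2.27, adjusted p = 0.000536 from limma) and Hspe1 (-1.86, adjusted p = 0.00111), the chaperonin pair of mitochondria, which are not typical early genes. Hspd1 and Hspe1 have 2 features each and Hsp90aa1 has 3, of which the brightest was read. They were also called with the mean of the features. Hspa1a, the stress-inducible HSP70, read 6.10, 5.74 and 6.12 in Axin2+/GFP+ and 6.63, 6.68 and 6.66 in Axin2-/GFP- cells, a log2 difference of -0.67 (limma adjusted p = 0.0349). The call was lost when Axin2+/GFP+ replicate 2 (-0.55) or any Axin2-/GFP- replicate was left out (-0.68, -0.66 and -0.67 for replicates 1, 2 and 3) and after quantile normalization (-0.14) and cyclic loess (-0.05). Hsp90aa1 at -0.89 (adjusted p = 0.0190) lost its call without Axin2-/GFP- replicate 1 (-0.82) or 3 (-0.78), with quantile normalization (-0.61) and with cyclic loess (-0.24). Dnajb4 at -0.96 (adjusted p = 0.0412) lost it without Axin2+/GFP+ replicate 2 (-0.78) or 3 (-0.87) or Axin2-/GFP- replicate 1 (-1.11), 2 (-0.93) or 3 (-0.83), with quantile normalization (-0.85) and with cyclic loess (-0.89), and 1 of its 3 Axin2+/GFP+ samples was above the receptor level. Dnajb1, a cochaperone of the heat shock response, did not pass at -0.54.

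Markers of the cell types that the sorts could hold were read on the same arrays. Of 13 measured mesenchyme markers 3 were higher and 0 lower, namely the collagen genes Col1a1 (1.66), Col1a2 (1.72) and Col3a1 (1.95). The mesenchymal transcription factors Prrx1 (0.88) and Twist1 (0.77) did not pass, and Msx2, Pdgfra and Sp7 were above the receptor level in 0 of 6 samples. Of 12 macrophage and monocyte markers 0 were higher and 3 lower, with a summed linear signal of 159 to 195 in Axin2+/GFP+ and 210 to 303 in Axin2-/GFP- cells. The 3 lower ones were Cd68 (-1.49), Ccr2 (-1.41) and Ly86 (-2.53). Mrc1 and Fcgr1 were above the receptor level in 0 of 6 samples, and Adgre1 and C1qa in 1 of 6. Of 9 endothelial markers 1 was lower, of 6 T and NK cell markers 1 was lower, and of 4 erythroid markers 1 was higher and 1 lower. For the T and NK list the summed signals of the sorts overlapped, at 54.2 to 78.4 and 72.2 to 96.2. The erythroid sums overlapped as well, at 113.5 to 125.8 and 84.0 to 208.9. Of the 9 endothelial markers 5 (Kdr, Tek, Emcn, Tie1 and Esam) were above the receptor level in 0 samples and 6 had a positive difference. The marker that was lower was Pecam1 (-2.23), which leukocytes also express, and the endothelial sums, 57.5 to 64.9 against 80.6 to 115, include it.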

How the data were processed

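RNA of 3 Axin2+/GFP+ and 3 Axin2-/GFP- samples was measured on Affymetrix whole-transcript arrays. The authors deposited log2 values per feature. RMA and R 3.2.1 appear in the processing notes of the submitters, and the probe set level is unstated. That the values are log2 was read from RMA and from their range. Upper quartiles were 3.72 to 3.76 in Axin2+/GFP+ and 3.97 to 4.00 in Axin2-/GFP- samples. Of 35557 features 21789 carry 1 symbol; the brightest per gene over all samples was kept, which left 19938 genes, and 0 columns were unmatched to a sample. The labels call the samples biological replicates, so p-values rest on the spread among pools. The number of arrays limits the precision.

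Each gene was fitted with limma 3.58.1 in R 4.3.3, with Benjamini-Hochberg adjustment over all genes at 0.05; the methods' two-sided Student's t-test was an alternative. The others were a variance trend, array weights, a block for the replicate number, 4 scalings, a filter on dim genes, the mean of a gene's features and leaving out each sample. The fit was tested on simulated data, where small log2 changes were recovered less often than large ones. A gene that did not pass may therefore still differ between the sorts. Members and lists were chosen with earlier results of these data known. Named were all members, every called gene of the wider lists (with close relatives named after their values were seen) and the 5 genes closest to the mean member. Of the 104 genes of these lists 95 had a feature with 1 symbol.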

Additional observations from a re-analysis of the deposited data

How the results depend on the processing

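Among 160 log2 changes of single members under alternatives, 129 kept direction and side of the threshold. The direction could not turn in the t-test, with a variance trend, a replicate block, the filter on dim genes or the mean of features. Signs turned after quantile normalization for Jun (0.13), Junb (0.41) and Atf3 (0.069), after cyclic loess for Jun (0.42), Junb (0.41), Atf3 (0.24) and Dusp1 (0.16), after median centring for Jund (-0.028) and under receptor centring for Jund (-0.24) and Ier2 (-0.19). With 1 sample left out Jund ran from -0.056 to 0.33 and Ier2 from -0.20 to 0.39. The count of members higher, 1 as deposited, was 0 in the methods' t-test, with a variance trend, with a replicate block, after median centring and under receptor centring, 2 after cyclic loess, and 0 to 1 with 1 sample left out. Members lower numbered 1 after median centring, 3 under receptor centring and 0 to 1 with 1 sample left out. The members' median was 0.44 after quantile normalization, 0.56 after cyclic loess and -0.36 under receptor centring.

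Genes higher and lower, 926 and 2265 as deposited, were 211 and 518 in the t-test, 459 and 2719 after median centring, 863 and 1165 after quantile normalization, 901 and 1373 after cyclic loess, 210 and 3980 under receptor centring, and 513 higher under the filter on dim genes. Of the wider lists 8 higher and 23 lower became 1 and 10, 5 higher, 15 and 12, 17 and 11, and 4 and 38 in the same order over the first 5 of these settings, the lower count after median centring being 29. With 1 sample left out all genes higher ran from 239 to 852 and lower from 1376 to 2082, and the wider lists from 4 to 7 and from 14 to 25. The cause of these shifts was not tested.

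Same-numbered samples of the sorts had deviations that correlated at 0.03, 0.01 and 0.05, so the numbers were not read as pairs, and not every sample correlated best with its own number. With the replicate number as a block 643 genes were higher and 2201 lower, and 0 members were called.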
